A study of Mus musculus with 18 samples.

Results

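The comparison described here is of mouse hepatocytes that overexpressed PGC-1a4 with hepatocytes that received the vector alone, all of them treated with TNF, the inflammatory cytokine tumour necrosis factor alpha. Its members were chosen by the array titles: 3 arrays of PGC-1a4 with TNF and 3 arrays of vector with TNF, 6 of the 18 arrays of the series. Primary hepatocytes were isolated from C57BL/6J mice and infected for 48 hours with adenovirus that carried PGC-1a4, PGC-1a1 or no insert, and every virus also made GFP from an open reading frame of its own. After infection the cells received TNF at 2 ng/mL for 2 hours or PBS as the vehicle, which gave 6 groups of 3 arrays. The 3 vector arrays with TNF were thus infected, made GFP and were treated with TNF in the same way as the PGC-1a4 arrays. The isoforms were overexpressed from a virus in cultured cells, and nothing in the labels tells whether arrays of 1 group are separate mice, cultures or wells, so the p-values measure the spread between arrays, which may be technical.

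PGC-1alpha is a transcriptional coactivator: it binds no DNA itself but joins nuclear receptors and other factors at their target genes, and in the liver it is known for its part in the fasting response and in mitochondrial gene expression. PGC-1a4 is a shorter isoform made by alternative splicing that keeps the N-terminal part of the full-length form, PGC-1a1, and was first described in skeletal muscle. TNF acts on hepatocytes through TNF receptor 1, which activates NF-kB and MAP kinases, and its outcome in the cell ranges from survival and an acute phase response to apoptosis. The comparison asks what PGC-1a4 did to the expression of genes in hepatocytes exposed to that signal.

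Levels are log2 values of the deposited table, so a difference of 1 is a doubling, and errors are standard errors of the difference over 3 arrays against 3. A gene was called when limma's moderated test passed an adjusted p of 0.05 by Benjamini and Hochberg over all 15491 genes. With PGC-1a4, 3273 genes were higher and 1911 were lower under TNF, which is 21.1% and 12.3% of the genes tested, 33.5% together. Of these, 270 were at least 2-fold higher and 57 at least 2-fold lower. All 3 arrays of one group lay above or below all 3 of the other for 4792 of the 5184 genes called, against 43.3% of all genes tested. Correlation between arrays was 0.981 to 0.984 across the groups, 0.992 to 0.993 within PGC-1a4 and 0.990 to 0.992 within vector.

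The split into higher and lower depended on how the arrays were scaled. Higher genes made up 63.1% of the calls as deposited, 53.9% after quantile normalization and 51.2% after cyclic loess, both over all probe sets. Differences also varied with the level of the gene, as the plot of difference against mean level shows. With the genes divided into 10 groups of rising mean level, the median difference was -0.07 in group 1, -0.09 in groups 2 and 3, 0.16 in groups 7 and 8 and 0.08 in group 10, against 0.01 over all genes. In group 1 only 2.32% of the genes were called higher, against 38.0% in group 7. In groups 6 to 10, at levels from 7.96 up, 29.9% to 38.0% were called higher and 9.81% to 12.8% lower, and these shares are the closer background for lists of well-expressed genes. The median level was 8.47 for the interferon list, 9.52 for TNF and NF-kB signalling, 9.73 for death genes, 10.22 for complement, 11.21 for acute phase proteins, 11.83 for heat shock proteins and 13.55 for secreted proteins.

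**Figure D1:**
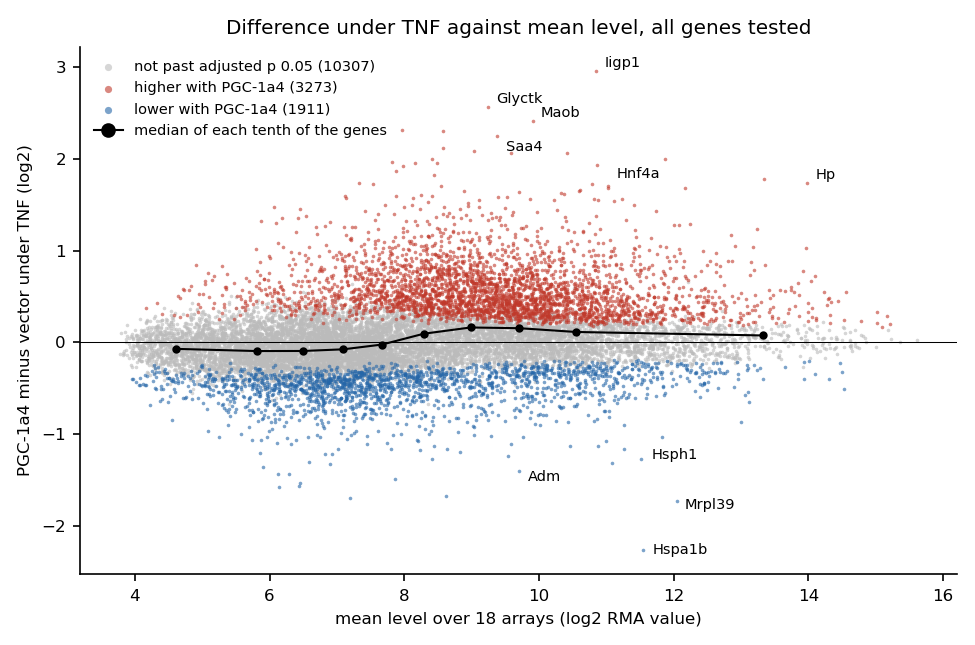
Each point is 1 of 15491 genes, with its mean log2 level over 18 arrays across and the log2 difference of PGC-1a4 from vector under TNF upward; red and blue mark the 3273 higher and 1911 lower genes, and the black line joins the medians of 10 groups of genes by level. The line lies below 0 at low levels and above 0 from group 6 on, and Iigp1 at 2.96 and Hspa1b at -2.26 are the ends of the range.

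The gene for PGC-1alpha itself, Ppargc1a, showed no difference that passed the test. Its brightest probe set read 7.01, 6.99 and 6.44 with vector and 6.74, 6.63 and 6.29 with PGC-1a4, a difference of -0.26 ± 0.16 (adjusted p = 0.212). The other probe sets read 4.09 and 4.16 on average with vector, and 4.28 and 4.31 with PGC-1a4. With PGC-1a1 under TNF the brightest probe set read 6.52 on average. Which part of the transcript these probe sets cover was not examined here, so the labels have no check from this gene. Tnf, the gene for the cytokine, read 7.68 with vector and 7.45 with PGC-1a4, with overlapping arrays (difference -0.24 ± 0.23).

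Interferon-inducible genes held the gene with the highest difference of all. Of 32 interferon response genes measured, 19 were higher and none was lower, and their median difference was 0.55 against 0.01 over all genes. On the arrays compared alone, without the other 12 arrays to estimate the spread, 12 were higher. After quantile normalization 14 were higher and 1 was lower, and the median was 0.38.

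Iigp1, an immunity-related GTPase that attacks the vacuoles of intracellular parasites, read 8.92, 9.01 and 8.18 with vector and 11.87, 11.74 and 11.39 with PGC-1a4. The difference was 2.96 ± 0.22, or 7.77-fold (adjusted p = 9.38e-08). Other interferon-inducible GTPases were higher too. Gbp6 was 3.87-fold higher, with vector arrays from 7.96 to 8.68 and a mean of 10.21 with PGC-1a4. Gbp2 was 3.32-fold higher, with vector arrays from 7.06 to 7.82 and PGC-1a4 arrays from 9.01 to 9.22. Ifi47 (3.09-fold) and Gbp7 (1.73-fold) were higher on all 3 PGC-1a4 arrays too. Irf1, a transcription factor induced by interferon gamma and by TNF, stood at 10.05, 9.91 and 9.94 with vector and at 11.01 on average with PGC-1a4, a 2.06-fold difference (1.04 ± 0.10). Ifih1, a sensor of double-stranded RNA, was 2.03-fold higher, and Trim30a was 1.84-fold higher. Rsad2, the antiviral protein viperin, was 3.00-fold higher, though PGC-1a4 array 3 at 10.29 lay more than 1 unit below the other two.

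Not all interferon-inducible genes were called. Chosen after their values were seen, Oas2 differed by -0.33 ± 0.15, Mx2 by 0.17 ± 0.15, Stat2 by 0.19 ± 0.09, Irf9 by 0.11 ± 0.16 and Irf7 by 0.30 ± 0.15, and none of these passed. Stat2 and Irf9 encode subunits of the factor ISGF3, which carries the signal of type I interferon. Other members of the list passed, Rsad2 and Ifih1 among them, as given above. A part of type I interferon in these differences was not tested.

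Promoters of 2 of the guanylate-binding protein genes are shown, because the list was named for a response with known DNA elements. Capitals mark the core of the interferon-stimulated response element, searched as TTTC, any 2 bases and TTTC, and of the gamma-activated site, searched as TTCNNNGAA, on either strand, and no match of one overlapped a match of the other. The sequences are the 250 bases before the RefSeq start site on GRCm38.p6, for Gbp2 chr3:142620413-142620662 on the plus strand and for Gbp7 chr3:142530086-142530335 on the plus strand.
Gbp2: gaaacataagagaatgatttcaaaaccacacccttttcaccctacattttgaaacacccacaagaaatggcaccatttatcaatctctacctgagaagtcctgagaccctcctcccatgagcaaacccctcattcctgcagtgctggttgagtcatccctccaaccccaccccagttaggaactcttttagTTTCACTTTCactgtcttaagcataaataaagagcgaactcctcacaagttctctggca
Gbp7: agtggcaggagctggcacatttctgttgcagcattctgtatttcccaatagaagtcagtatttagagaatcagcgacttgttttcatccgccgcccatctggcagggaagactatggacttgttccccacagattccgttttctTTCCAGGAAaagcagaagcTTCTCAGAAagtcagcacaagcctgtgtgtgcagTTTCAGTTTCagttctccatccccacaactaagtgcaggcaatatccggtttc
The element began 59 bases before the start site of Gbp2 and 53 bases before that of Gbp7, and Gbp7 held gamma-activated site matches at 106 and 87 bases before it. Over windows from 250 bases before to 50 after the start site, the response element core was found for 13 of the 23 interferon genes with a promoter in the table, or 56.5%, against 3.69% of 12327 genes measured. The gamma-activated site core was found for 30.4% of them and for 8.56% of all. Among all genes called higher the shares were 3.62% and 9.52%, and among those called lower 2.80% and 7.88%. The NF-kB core, searched as GGG, any 5 bases and CC, was in 67.0% of all windows, 71.9% of the higher and 66.4% of the lower genes. The AP-1 core, TGANTCA, was in 7.55%, 6.83% and 8.48%.

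Of 13 antigen processing genes measured, 6 were higher and 1 was lower, or 46.2% and 7.69%. The level group that holds the list's median level had 38.0% higher and 9.81% lower. Psmb10 and Psmb8, catalytic subunits of the immunoproteasome, were 2.16-fold and 2.05-fold higher. Psmb10 read 9.36, 9.20 and 9.29 with vector and 10.40, 10.37 and 10.41 with PGC-1a4. Psme1, a subunit of the proteasome activator PA28, was 1.85-fold higher, and the peptide loading genes Tapbp and Tap1 were 1.52-fold and 1.35-fold higher. Tap1 was not called after quantile normalization (0.25) or cyclic loess (0.28), or when its probe sets were averaged (0.01), and the median of the list was 0.34, or 0.05 with means of probe sets. Ubd, which encodes the ubiquitin-like modifier FAT10 and was among the 20 highest genes, read 6.74, 6.81 and 6.59 with vector and 9.12, 9.33 and 8.64 with PGC-1a4, a 4.98-fold difference. H2-K1, a class I heavy chain, fell by 0.32 on the probe set used, and its other probe set passed in the opposite direction.

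**Figure D2:**
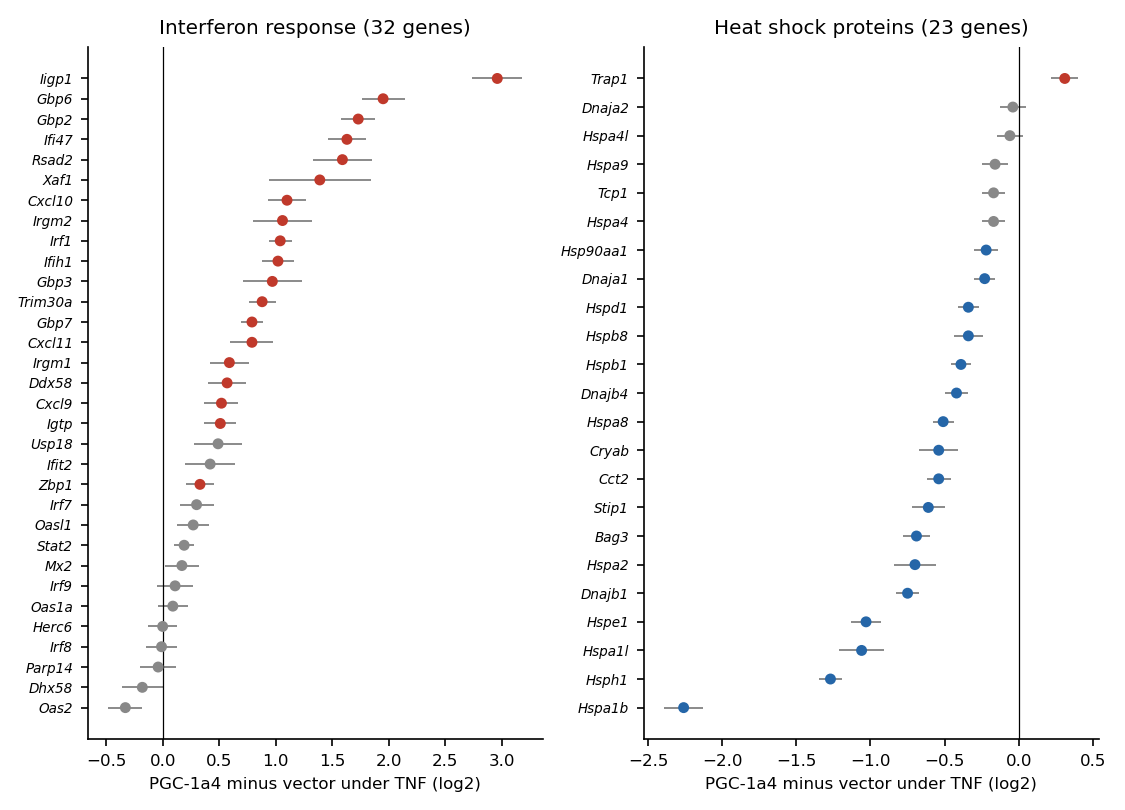
Log2 difference of PGC-1a4 from vector under TNF, with its standard error, for each measured gene of the interferon list at left and the heat shock list at right; red and blue points passed an adjusted p of 0.05 and grey points did not. Interferon genes run from -0.33 to 2.96 with 19 red points and no blue one, and heat shock genes from -2.26 to 0.31 with 17 blue points and 1 red.

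Genes of the TNF pathway itself were higher in 18 of 39 cases and lower in none, with a median of 0.23. The level group that holds the list's median level had 37.9% higher and 10.4% lower, against 46.2% and none in the list. The median difference of that level group was 0.16. After cyclic loess 15 were higher and 3 lower. The members called ran through the pathway from the receptor to its feedback inhibitors. Tnfrsf1a, TNF receptor 1, was 1.58-fold higher, at 10.85, 10.89 and 10.88 with vector and 11.55, 11.55 and 11.50 with PGC-1a4. Its adaptor Tradd was 1.74-fold higher on 1 of its 2 probe sets and differed by -0.21 on the other, and Ikbkg, the regulatory subunit of the IkB kinase, was 1.77-fold higher on all 4 of its probe sets. Birc2 encodes cIAP1, the ubiquitin ligase that keeps receptor complex I in its NF-kB-activating form. It read 10.19, 10.15 and 10.05 with vector and 11.44, 11.33 and 11.28 with PGC-1a4, a 2.33-fold difference (adjusted p = 3.28e-06).

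The feedback inhibitors of NF-kB were higher as well. Nfkbia, which encodes IkB alpha, read 12.13, 12.12 and 12.14 with vector and 12.99 to 13.05 with PGC-1a4, 1.84-fold higher. Tnfaip3, which encodes A20, was 2.01-fold higher (11.08, 11.03 and 11.04 against 12.07, 12.17 and 11.95). Its partner Tnip1 was 1.67-fold higher, and Bcl3, a nuclear IkB protein, 1.63-fold higher. In each of these genes the lowest PGC-1a4 array lay above the highest vector array, and arrays did not overlap for 4792 of the 5184 genes called. Tlr2, a receptor for bacterial lipoproteins that NF-kB induces, was among the 20 highest genes at 3.66-fold, with vector arrays from 7.86 to 8.05 and PGC-1a4 arrays from 9.62 to 9.92.

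Of 35 chemokines and cytokines, 9 were higher and 2 lower, and the median difference was 0.03. Among the 14 left by a filter on dim genes, 9 were higher and 1 lower with a median of 0.60, against 0.12 over all genes so filtered. Ccl9, a chemokine for myeloid cells, read 8.27, 8.24 and 7.79 with vector and 10.18, 10.25 and 9.74 with PGC-1a4, 3.89-fold higher. Il18, whose product is stored as a precursor and released by inflammasomes, was 2.89-fold higher. Cxcl10, a lymphocyte attractant induced by interferon, read 11.57, 11.73 and 11.46 with vector and 12.63, 12.67 and 12.78 with PGC-1a4, 2.15-fold higher. Cxcl11 (1.73-fold), Cxcl16 (1.58-fold) and Lif (1.46-fold) were also higher. Cxcl12, the ligand of CXCR4, was 1.61-fold lower, and Ccl25 was 1.31-fold lower.

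Acute phase proteins, which the liver secretes in inflammation, were higher in 16 of 23 cases and lower in none, with a median of 0.55 that was 0.47 to 0.58 under the scalings tried. Saa4, the constitutive serum amyloid A of high-density lipoprotein, read 8.36, 8.02 and 7.55 with vector and 10.28, 10.32 and 10.07 with PGC-1a4, 4.74-fold higher (adjusted p = 2.07e-08). Crp, C-reactive protein, was 3.83-fold higher (9.94, 9.49 and 9.47 against 11.66, 11.54 and 11.50). Hp, the haemoglobin scavenger haptoglobin, was 3.34-fold higher (12.31, 12.13 and 12.01 against 14.04, 13.95 and 13.68). The arrays of the 2 groups did not overlap in any of these genes, as in 4792 of the 5184 genes called. The 20 highest genes, Crp among them, were taken only from genes without overlap. Ceruloplasmin (Cp) was 2.04-fold higher, lipopolysaccharide-binding protein (Lbp) 2.00-fold and the fibrinogen chain gene Fgb 1.85-fold. The iron-siderophore binder Lcn2 (1.47-fold) and the metallothionein Mt1 (1.46-fold) had smaller differences at levels above 14.

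Levels under PBS are given beside these for comparison, and genes differed in how they stood to them. Hp read 15.06 on average with vector and PBS, 12.15 with vector and TNF, and 13.89 with PGC-1a4 and TNF. Crp read 11.36, 9.63 and 11.57 in the same order, and Saa4 9.96, 7.98 and 10.22. Cp read 14.61, 13.03 and 14.06, Lbp 11.86, 10.17 and 11.17, and Fgb 14.37, 11.31 and 12.20. Lcn2 read 14.55, 14.26 and 14.81 and Mt1 14.13, 14.08 and 14.63. With PGC-1a4 and TNF, Crp, Saa4, Lcn2 and Mt1 lay above the level with vector and PBS, and Hp, Cp, Lbp and Fgb below it. The labels give no date or batch for the arrays, and all arrays of a treatment differ from those of the other in that treatment, so an array set and the treatment cannot be told apart in levels set side by side across treatments.

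Complement and coagulation genes showed the highest share of any list, with 26 of 30 higher, none lower and a median of 0.42. The count was 19 of 30 after cyclic loess. Cfb, factor B of the alternative pathway, read 10.46, 10.41 and 10.42 with vector and 11.37, 11.35 and 11.12 with PGC-1a4, 1.80-fold higher. The classical pathway proteases C1ra (1.71-fold) and C1s1 (1.62-fold) and their inhibitor Serping1 (1.84-fold) were higher together. Coagulation factors F5 (1.96-fold), F10 (1.92-fold) and F9 (1.46-fold) were higher, and so was the plasmin inhibitor Serpinf2 (1.55-fold). Folds were mostly below 2. For each of these 8 genes no vector array reached a PGC-1a4 array, and arrays did not overlap for 4792 of the 5184 genes called. Of 16 other secreted proteins of hepatocytes, 10 were higher and none lower, among them Igfbp1, a binding protein of insulin-like growth factors (2.35-fold), the hormone Fgf21 (2.24-fold) and the apolipoproteins Apoc3 (1.71-fold) and Apoe (1.35-fold).

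Of 19 genes for IL-6 and STAT3 signalling, which drives the acute phase genes, 8 were higher and 1 lower. The 42.1% that were higher compare with 37.9% of all genes in the level group that holds the list's median level. After cyclic loess 5 were higher and 4 lower. Osmr, the receptor subunit for oncostatin M, was 2.45-fold higher, at 7.88, 8.25 and 7.95 with vector and 9.52, 9.15 and 9.28 with PGC-1a4. The kinases Tyk2 (1.48-fold) and Jak2 (1.42-fold) were higher. The kinase gene Pim1 was 1.33-fold lower.

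**Figure D3:**
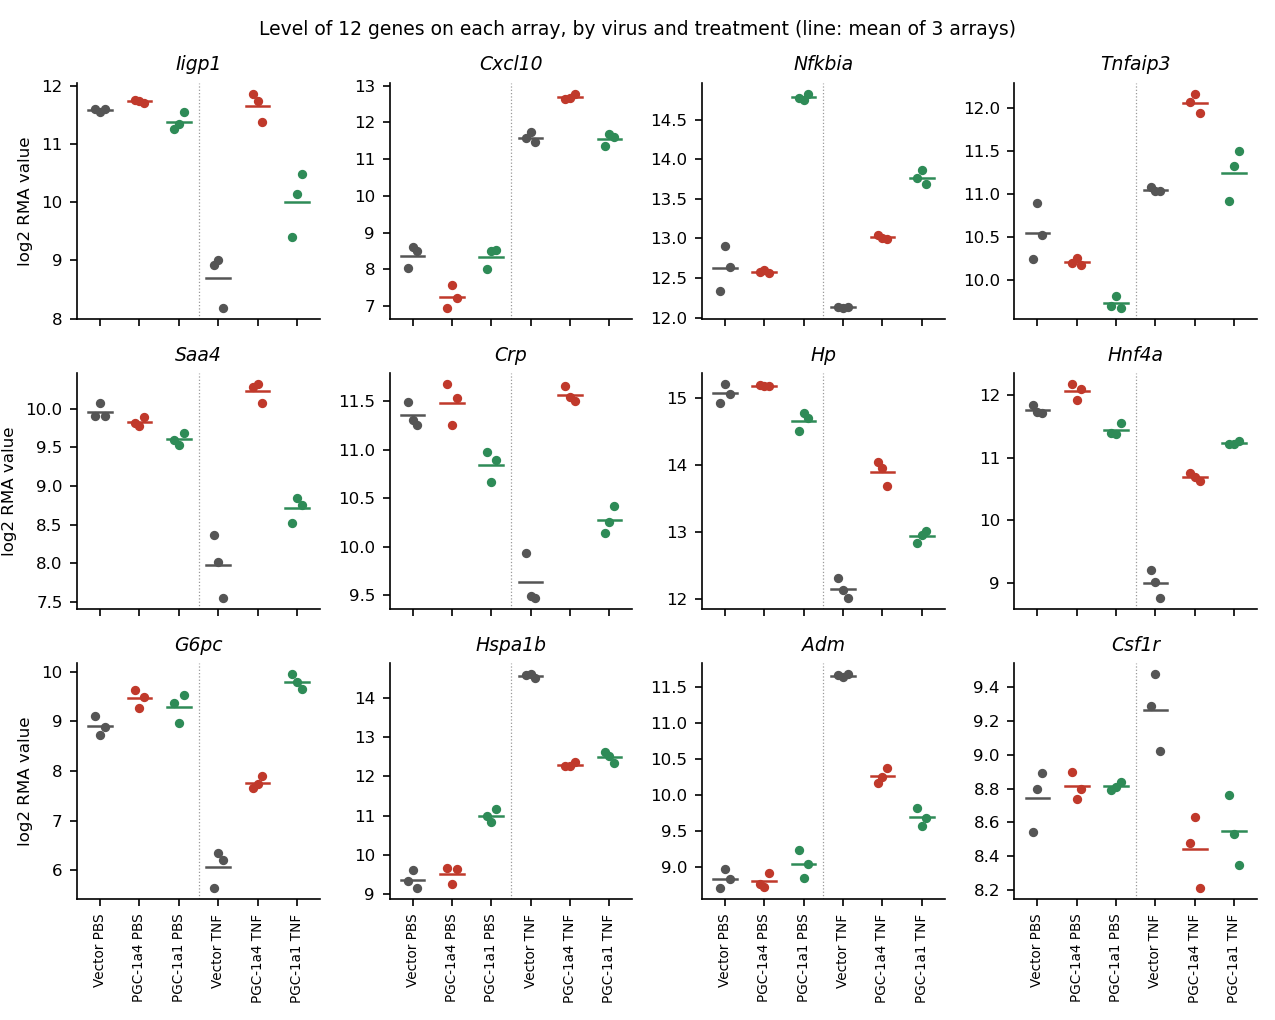
Log2 level of 12 genes on each of the 18 arrays, by virus and treatment, with points for arrays and a line at the mean of each group of 3. With TNF, PGC-1a4 points lie above vector points in the first 9 panels and below them for Hspa1b, Adm and Csf1r.

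Transcription factors that define hepatocytes had a mixed pattern, with 7 of 19 higher and 2 lower and a median of 0.10 that was -0.03 after cyclic loess. The 36.8% that were higher lay near the 37.9% of all genes in the level group that holds the list's median level. Hnf4a, the nuclear receptor at the centre of hepatocyte identity and a partner of PGC-1alpha, read 9.20, 9.01 and 8.75 with vector and 10.75, 10.69 and 10.62 with PGC-1a4. That was 3.26-fold higher (adjusted p = 1.12e-08), and all 3 of its probe sets were called. Ppara, the fatty acid sensor, was 2.05-fold higher, Creb3l3, a membrane-bound factor of fasting and the acute phase, 1.93-fold, Xbp1 1.79-fold and Cebpa 1.51-fold. Onecut2 was 1.82-fold lower, on both of its probe sets, and Tbx3 was 1.42-fold lower.

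Gluconeogenesis, the pathway most associated with hepatic PGC-1alpha, had 7 of 13 genes higher and 1 lower, with a median of 0.46. G6pc, the catalytic subunit of glucose-6-phosphatase, read 5.64, 6.35 and 6.20 with vector and 7.65, 7.74 and 7.91 with PGC-1a4, 3.26-fold higher (adjusted p = 1.46e-06). Its transporter partner Slc37a4 was 2.37-fold higher, and Fbp1, the enzyme before it, 2.21-fold. The genes Pck2 (1.69-fold), Gpt2 (1.65-fold) and Pcx (1.61-fold), which feed carbon into the pathway, were higher as well. Glycolysis had 6 of 18 genes higher and none lower, led by Pfkp (1.94-fold) and Pfkfb3 (1.83-fold). Its share of 33.3% higher lay near the 35.5% of all genes in the level group that holds its median level.

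Fatty acid oxidation had 14 of 24 genes higher and 1 lower, with a median of 0.46. Ehhadh, a peroxisomal enzyme and a target of PPAR alpha, read 8.34, 8.12 and 8.14 with vector and 9.47, 9.51 and 9.26 with PGC-1a4, 2.32-fold higher. The carnitine shuttle was higher at 3 steps: Cpt2 by 1.91-fold, Slc25a20 by 1.79-fold and Cpt1a by 1.68-fold. Cpt2 and Cpt1a were each called on 1 of 2 probe sets. The member that was lower was Pdk4, the kinase that shuts off pyruvate dehydrogenase, at 10.44, 10.32 and 10.10 with vector and 9.42, 9.38 and 9.52 with PGC-1a4, 1.80-fold lower. G0s2, an inhibitor of the lipase ATGL, was among the 20 highest genes at 3.55-fold.

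Respiratory chain genes were higher by small amounts, 29 of 67 higher and 3 lower with a median of 0.19, at a high median level of 12.55. Ndufa8 (1.52-fold), Sdha (1.48-fold), Ndufb9 (1.47-fold) and Atp5d (1.34-fold) were examples, from complexes I and II and the ATP synthase. Ndufs4, of complex I, was the exception in size: it read up to 9.21 with vector and 8.32, 7.85 and 7.94 with PGC-1a4, 2.11-fold lower on 1 of its 2 probe sets. Citrate synthase (Cs) was 1.51-fold and Idh3a 1.41-fold higher, in a TCA cycle list with 5 of 20 higher and 2 lower. The 25.0% that were higher compare with 29.9% of all genes in the level group that holds the list's median level. Among regulators of mitochondrial biogenesis, 5 of 21 were higher and 4 lower. The deacetylase Sirt3 was 2.30-fold higher, Tfb1m 1.76-fold and Esrra 1.55-fold, while Tfb2m was 1.31-fold lower.

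Lists of lipid synthesis and detoxification differed in their shares. Of 22 fatty acid and triglyceride synthesis genes, 9 were higher and 2 lower, with Gpam, the first enzyme of triglyceride synthesis, 2.53-fold higher on 1 of its 2 probe sets (0.36 and not called with the most variable one) and Lpin1 1.37-fold lower. Cholesterol synthesis was split, 4 of 18 higher and 3 lower, or 2 and 4 after cyclic loess, with Dhcr7 (2.55-fold) and Ebp (2.02-fold) higher. Conjugation enzymes were higher in 15 of 26 cases and lower in none. The methyltransferase gene Tpmt was 2.99-fold higher, at 8.59, 8.67 and 8.48 with vector and 10.11, 10.28 and 10.11 with PGC-1a4. Ugt2b5 (2.34-fold), Sult1b1 (2.30-fold), Sult1a1 (2.22-fold) and Gstm3 (2.06-fold) were higher too. Cytochromes P450 of families 1 to 3 had 9 of 27 higher and 2 lower, with Cyp2r1, a vitamin D 25-hydroxylase, 1.67-fold and Cyp3a11 1.57-fold higher. Their share of 33.3% higher compares with 37.9% of all genes in the level group that holds their median level. Sequences of Gstm, Ugt, Sult and Cyp2d genes are alike, so signal may be shared between close copies.

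Bile acid and amino acid genes followed. Baat, which conjugates bile acids to taurine, read 7.29, 7.17 and 6.84 with vector and 9.53, 9.35 and 8.78 with PGC-1a4, 4.34-fold higher, in a list with 7 of 15 higher and none lower. Of 31 genes for the urea cycle and amino acid breakdown, 16 were higher and 1 was lower. Mat1a, which makes S-adenosylmethionine in the adult liver, was 2.61-fold higher, the decarboxylase gene Ddc 2.59-fold, Fah, which ends tyrosine breakdown, 1.88-fold and the glutamine synthetase gene Glul 1.70-fold. Several of the 20 highest genes are also metabolic enzymes. Glyctk, glycerate kinase, was 5.90-fold higher (6.42, 6.53 and 6.69 against 9.05, 9.24 and 9.03). Maob, monoamine oxidase B, was 5.34-fold higher (7.60, 7.55 and 7.82 against 10.31, 10.23 and 9.67), and Akr1c14, a hydroxysteroid dehydrogenase, 4.93-fold. Qprt, of NAD synthesis, was 4.18-fold higher, and the retinaldehyde dehydrogenase genes Aldh1a7 and Aldh1a1 were 3.99-fold and 3.43-fold higher.

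Other genes among the 20 highest had no single theme. Fgf13, a channel regulator of the fibroblast growth factor family, was 4.26-fold higher, Gprin3 4.18-fold, Fam43a 4.01-fold and Robo1, a receptor for Slit guidance proteins, 3.79-fold. Hjv, the BMP coreceptor haemojuvelin that controls hepcidin, was 3.91-fold higher, from a vector level of 5.95, 5.50 and 5.28 that lies below the lower quartile of those arrays.

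**Figure D4:**
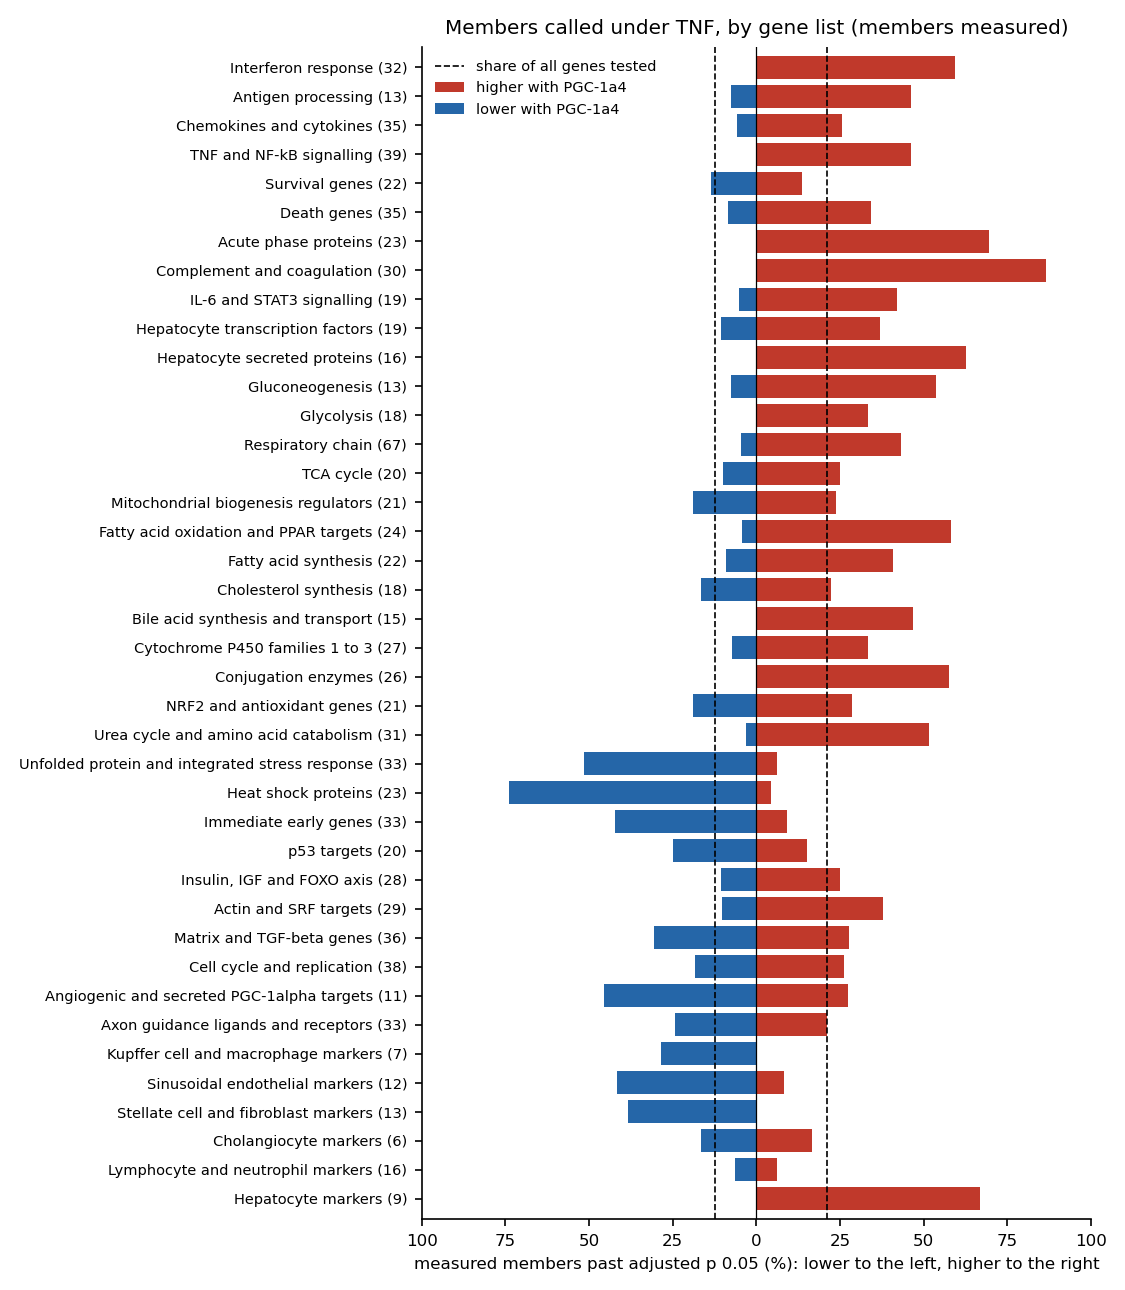
Share of the measured genes of each of 40 lists that were higher (red, to the right) or lower (blue, to the left) with PGC-1a4 under TNF, in percent, with the number measured beside the name and dashed lines at the shares over all genes, 21.1% and 12.3%. Complement and coagulation reaches 86.7% higher and heat shock proteins 73.9% lower.

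Survival genes gave no common direction: of 22 measured, 3 were higher, 3 were lower and 16 did not pass. Birc2, described above, was higher. Mcl1, an anti-apoptotic BCL2 relative, was 1.19-fold higher on the probe set used, while another of its 4 probe sets passed in the opposite direction. Its call was lost without PGC-1a4 array 1 (0.22), vector array 1 (0.23) or vector array 3 (0.22). Birc6 was 1.17-fold higher, and its call was lost without PGC-1a4 array 1 (0.23) or 2 (0.21), or vector array 1 (0.22) or 3 (0.18). The kinase gene Pim3 was 2.24-fold lower, at 11.54, 11.64 and 11.59 with vector and 10.35, 10.49 and 10.44 with PGC-1a4, on 1 of its 2 probe sets. Bag3, a cochaperone that holds off apoptosis, was 1.61-fold lower.

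Of 35 death genes, 12 were higher and 3 lower, against 9 and 6 after quantile normalization. The 34.3% that were higher compare with 37.9% of all genes in the level group that holds the list's median level, so the share is near the background. Gsdmd, whose cleaved product forms the pores of pyroptosis, was 2.86-fold higher (8.49, 8.13 and 8.18 against 9.79, 9.82 and 9.74; adjusted p = 2.31e-06). The BH3-only gene Bik was 2.51-fold higher, from vector arrays of 7.22, 7.05 and 6.08. Among the other BCL2-family killers, Bok was 1.67-fold and the pore former Bak1 1.60-fold higher, Bak1 on 1 of 2 probe sets, with -0.24 on the other. Cideb, which hepatocytes also use for lipoprotein lipidation, was 2.01-fold, the translation inhibitor Pdcd4 1.57-fold and the caspase activator Diablo 1.35-fold higher. Bbc3, the p53 target PUMA, went the other way: it read 10.73, 10.47 and 10.68 with vector and 9.71, 9.92 and 9.92 with PGC-1a4, 1.72-fold lower.

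Heat shock genes were mostly lower. Of 23 heat shock proteins and cochaperones, 17 were lower and 1 was higher, and 22 had a difference below 0, with a median of -0.42. The median was -0.37 to -0.52 under the scalings, filters and probe set rules tried. These proteins refold or hold damaged proteins and are induced by heat shock factor 1.

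Hspa1b, the inducible HSP70, had the lowest difference of all genes. It read 14.57, 14.61 and 14.50 with vector and 12.25, 12.27 and 12.37 with PGC-1a4, 4.80-fold lower (adjusted p = 7.89e-09), on both probe sets. Its nucleotide exchange factor Hsph1 was 2.41-fold lower, at 13.21, 13.20 and 13.21 with vector and 11.87, 11.90 and 12.03 with PGC-1a4. Hspe1, the mitochondrial HSP10, was 2.04-fold lower (12.81, 12.80 and 12.84 against 11.75, 11.77 and 11.86). The cochaperone Dnajb1 was 1.68-fold lower, the chaperonin subunit gene Cct2 1.45-fold and the constitutive Hspa8 1.42-fold. Hspa1l was 2.08-fold lower, from a level of 6.73 to one of 5.67 below the lower quartile of the arrays, and shares much sequence with Hspa1b. The member that was higher, Trap1, a mitochondrial HSP90, differed by 0.31 ± 0.09, and its call was lost without PGC-1a4 array 2 (0.28) or vector array 3 (0.27). The call was also lost after quantile normalization (0.19) and cyclic loess (0.18). Trap1 was picked out after its value was seen.

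Promoters of Hspa1b and Hspe1 are shown with the core of the heat shock element in capitals, searched as GAANNTTC, which reads the same on both strands; this motif was added after the values were seen. The sequences are the 250 bases before the RefSeq start site on GRCm38.p6, for Hspa1b chr17:34959239-34959488 on the minus strand and for Hspe1 chr1:55087898-55088147 on the plus strand.
Hspa1b: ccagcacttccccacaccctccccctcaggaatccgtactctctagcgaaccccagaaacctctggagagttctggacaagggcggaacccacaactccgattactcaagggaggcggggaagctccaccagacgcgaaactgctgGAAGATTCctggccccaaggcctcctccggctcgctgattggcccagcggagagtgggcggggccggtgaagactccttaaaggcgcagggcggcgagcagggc
Hspe1: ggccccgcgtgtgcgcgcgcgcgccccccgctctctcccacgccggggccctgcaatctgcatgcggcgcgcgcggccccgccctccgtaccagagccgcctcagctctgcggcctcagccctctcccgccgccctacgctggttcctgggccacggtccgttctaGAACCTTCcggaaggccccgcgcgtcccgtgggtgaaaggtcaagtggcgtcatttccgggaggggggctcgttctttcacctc
The match began 104 bases before the start site of Hspa1b and 84 bases before that of Hspe1. It was found for 9 of 19 heat shock genes with a promoter in the table, or 47.4%, and for 7.60% of all genes measured. Among genes called lower the share was 8.61% and among those called higher 6.97%.

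Genes of the unfolded protein and integrated stress responses were lower in 17 of 33 cases and higher in 2, with a median of -0.34. Ppp1r15a, the phosphatase subunit GADD34 that ends the translation block, read 12.29, 12.46 and 12.24 with vector and 11.58, 11.60 and 11.56 with PGC-1a4, 1.68-fold lower. Ddit3, the factor CHOP, and Dnajb9, an endoplasmic reticulum cochaperone, were both 1.49-fold lower. Further chaperones of that compartment followed, with Hyou1 1.41-fold, Manf 1.37-fold, Dnajb11 1.36-fold and Hspa5, which encodes BiP, 1.32-fold lower. The factor Xbp1 lay outside this pattern, as given above. Sel1l was 1.52-fold lower on the probe set used, but 1 of its 4 probe sets passed in the opposite direction.

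Immediate early genes, switched on within minutes of a stimulus, were lower in 14 of 33 cases and higher in 3. Maff was 1.81-fold lower (12.84, 12.83 and 12.94 against 11.93, 11.97 and 12.13), the phosphatases Dusp4 and Dusp6, which shut off ERK, were both 1.72-fold lower, the AP-1 subunits Fosl1 and Jun 1.63-fold and 1.55-fold lower. The 3 higher members were Ccn2 (1.96-fold), Ccn1 (1.76-fold) and Srf (1.59-fold). They also belong to the list of actin and SRF targets, where 11 of 29 were higher and 3 lower. There Mrtfa, a coactivator of SRF, was 1.59-fold and Actb 1.26-fold higher, and the smooth muscle genes Tagln (1.69-fold) and Acta2 (1.55-fold) were lower. Of 20 p53 targets 3 were higher and 5 lower, with Eda2r 1.57-fold and Plk3 1.56-fold lower.

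Adm, which encodes the vasodilator adrenomedullin, was 2.63-fold lower, at 11.66, 11.63 and 11.68 with vector and 10.16, 10.24 and 10.37 with PGC-1a4, on both probe sets (adjusted p = 9.73e-08). It belongs to a list of angiogenic and secreted genes that PGC-1alpha is known to act on in other tissues, in which 5 of 11 were lower and 3 higher. Angpt2, an antagonist of the endothelial receptor TIE2, was 2.16-fold lower, while Fgf1 was 2.17-fold and Angptl4 1.94-fold higher. Antioxidant genes were divided, 6 of 21 higher and 4 lower. Prdx2 (1.77-fold), Sod2 (1.60-fold) and Prdx3 (1.49-fold) were higher, and Osgin1 (1.68-fold) was lower.

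Other genes among the 20 lowest are less well tied to a pathway. Mrpl39, a mitochondrial ribosomal protein, read 12.96, 12.91 and 12.91 with vector and 11.24, 11.13 and 11.24 with PGC-1a4, 3.31-fold lower on 1 of its 2 probe sets. Eogt, a glycosyltransferase, was 3.18-fold lower on the probe set used, while its other probe set passed in the opposite direction. Cks1b, a subunit of cyclin-dependent kinase complexes, was 2.49-fold lower on 1 of 2 probe sets. The guidance ligand gene Sema3c (2.95-fold), the protocadherin gene Pcdh17 (2.98-fold) and Nfat5, the factor of osmotic stress (2.30-fold), were lower as well. Elmod3, Rnf225, Zfp654 and St8sia4 were among the 20 too, as were Fer1l6, Myo1g, Rgcc, Tecta, Ampd1, Pygm and Tafa2, whose mean levels with vector were 7.37 to 7.87.

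The remaining lists had members in both directions. Of 38 cell cycle and replication genes 10 were higher and 7 lower, with the kinase genes Cdk4 (1.39-fold), Cdk2 (1.37-fold) and Cdk1 (1.36-fold) higher. Of 28 genes of the insulin, IGF and FOXO axis 7 were higher and 3 lower, and Akt1, 1.30-fold higher on the probe set used, had 1 of its 4 probe sets pass in the opposite direction. Of 33 axon guidance genes 7 were higher and 8 lower, Robo1 and Sema3c among them.

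Markers of other liver cells had members in both directions, more of them lower. Cholangiocytes apart, these lists have their median levels in groups 2 to 4, where all genes leaned lower too. There 4.52% to 9.68% were higher and 12.8% to 15.4% lower. Of the markers, 28.6% were lower for Kupffer cells and macrophages and 41.7% for endothelium. The share was 38.5% for stellate cells and fibroblasts and 6.25% for lymphocytes and neutrophils. Of 7 measured markers of Kupffer cells and macrophages, 2 were lower and none higher: Csf1r, the macrophage growth factor receptor (9.29, 9.48 and 9.02 against 8.48, 8.63 and 8.21, on 1 of 3 probe sets, with 0.03 on the most variable one), and Lyz2, lysozyme (8.90, 8.93 and 8.57 against 8.22, 8.25 and 7.92). Their mean level was 6.83 to 6.86 on the vector arrays and 6.41 to 6.60 on the PGC-1a4 arrays, and the macrophage scavenger receptor gene Cd163 read 4.67 to 5.19 and 4.52 to 4.86, below the lower quartile of the arrays. Sinusoidal endothelial markers were lower in 5 of 12 cases and higher in 1, with Emcn 1.65-fold, Lyve1 1.64-fold and Cdh5 1.68-fold lower, Cdh5 on 1 of its 2 probe sets (-0.14 and not called with the most variable one), and their mean level went from 7.45 to 7.59 with vector to 7.12 to 7.27. Stellate cell and fibroblast markers were lower in 5 of 13 cases and higher in none, with mean levels of 6.97 to 7.08 and 6.58 to 6.74. Ngfr was 1.90-fold and Col3a1 1.74-fold lower in that list. Lymphocyte and neutrophil markers had 1 of 16 higher and 1 lower, and cholangiocyte markers 1 of 6 higher, Cldn4 (2.59-fold), and 1 lower, Cftr (1.52-fold). The 9 hepatocyte markers measured had 6 higher and none lower, with a mean level of 11.27 to 11.54 on vector arrays and up to 12.03 on PGC-1a4 arrays.

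The marker lists of other cells had median levels of 6.07 to 8.11 and median differences of -0.08 to -0.33. Fewer cells of a type and less RNA per cell cannot be told apart in these cultures. The part of cell composition in the lists that were higher or lower was not tested. Matrix genes were split, with 10 of 36 higher and 11 lower. Mmp14, a membrane collagenase, was 2.27-fold higher on 1 of its 3 probe sets (0.28 and not called with the most variable one), the basement membrane collagen Col4a1 was 1.88-fold higher, and Col5a2 (2.00-fold), Bmp2 (1.88-fold) and Sparc (1.69-fold) were lower.

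Without TNF the same comparison gave few calls. Under PBS, 12 genes (0.0775%) were higher and 20 (0.129%) lower with PGC-1a4, together 0.207% of the genes tested, and 1668 had an unadjusted p below 0.05. The number rests on single arrays and on the fit: it was 9 without PGC-1a4 PBS array 1, 17 without array 3, 59 without vector PBS array 2, 21 without vector PBS array 3 and 893 with array weights. Over all genes the standard deviation of the differences was 0.38 under TNF and 0.16 under PBS. The arrays also differed in scale. The standard deviation of the levels on an array was 2.057 to 2.117 with vector or PGC-1a4 under PBS. Under TNF it was 2.241 to 2.250 with vector and 2.299 to 2.315 with PGC-1a4. The part of this scale in the differences was not tested. Across genes, differences under TNF and PBS, which share no array, had a correlation of 0.263; genes are not independent replicates.

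The difference of PGC-1a4 from vector itself differed between TNF and PBS in 2480 genes, or 16.0%, by the interaction term of the fit. It was more positive under TNF in 1841 and more negative in 639. After cyclic loess these were 1387 and 1111. Among the genes described above, Iigp1 read 11.59 with vector and 11.74 with PGC-1a4 under PBS, so its difference was 2.81 higher under TNF (adjusted p = 3.45e-05). Hspa1b read 9.36 and 9.52 under PBS, and its interaction was -2.43 (adjusted p = 6.69e-07). Of the lists, 13 of 32 interferon genes, 15 of 23 acute phase genes and 16 of 39 TNF pathway genes had a more positive difference under TNF, against 11.9% of all genes. Of the 23 heat shock genes 12, and of the 33 unfolded protein and stress genes 15, had a more negative one, against 4.12% of all genes. Fatty acid oxidation had 7 of 24, and respiratory chain 6 of 67, in the positive direction.

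Some 19 genes were called under both treatments. That is 59.4% of the PBS calls, against 33.5% of all genes called under TNF. It is 0.367% of the TNF calls, against 0.207% of all genes called under PBS. Of the 19 genes, 13 had the same direction. Ager, the receptor for advanced glycation end products, was 2.02-fold lower under TNF and 2.41-fold lower under PBS. Opa3, Eea1 and Fam171b were lower, and Ift27, Sf3b5, Tns1 and Vps52 higher, under both. In 6 genes the directions were opposite. All 6 passed the interaction test, which adds no support. That test subtracts the PBS difference from the TNF difference, and these genes were picked for opposite signs. Cxcl10 was one: under PBS it read 8.38 with vector and 7.25 with PGC-1a4 (adjusted p = 0.00554), the reverse of its order under TNF. Ampd3 was likewise lower with PGC-1a4 under PBS and higher under TNF, and Cpeb4, Slc1a3 and Vgll3 were higher under PBS and lower under TNF. Psg28, a pregnancy-specific glycoprotein gene, was called under PBS and not under TNF, at 7.79 with vector and 10.10 with PGC-1a4 under PBS.

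**Figure D5:**
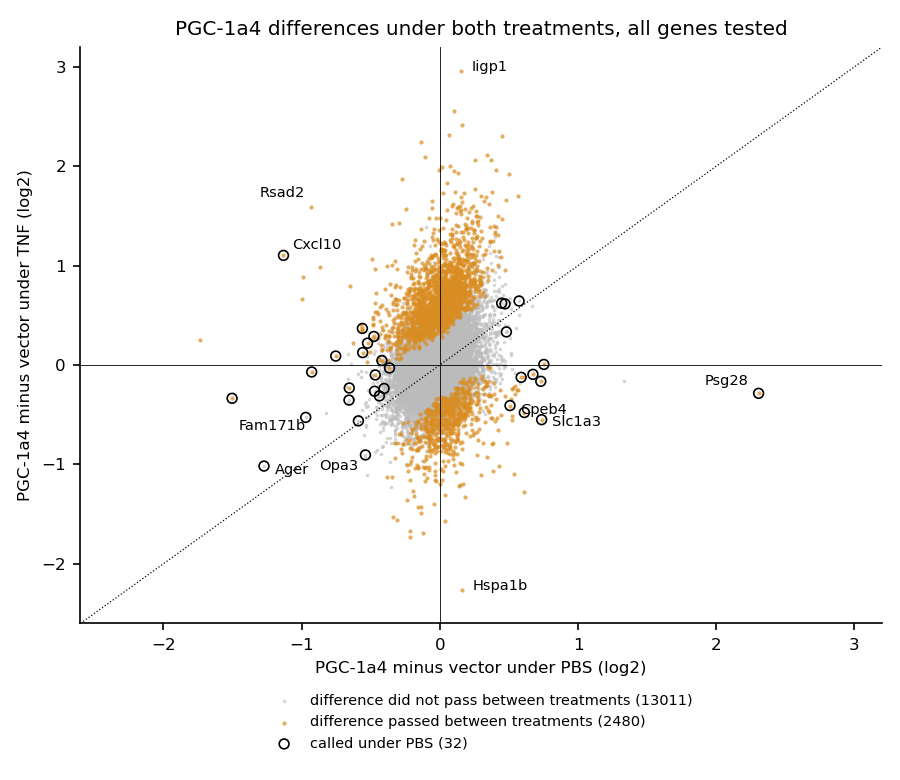
Log2 difference of PGC-1a4 from vector under PBS (across) and under TNF (upward) for 15491 genes; orange marks the 2480 genes whose difference passed the test between treatments, circles mark the 32 genes called under PBS, and the dotted line marks equal differences. Points spread more along the TNF axis, and Cxcl10 lies at -1.13 across and 1.10 upward.

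Against PGC-1a1 under the same TNF treatment, PGC-1a4 was higher in 3294 genes and lower in 2353, which is 21.3% and 15.2% of those tested and 36.5% together. These values share the PGC-1a4 arrays with the comparison to vector, so the 2 sets of differences are given side by side only. Interferon genes were higher than with PGC-1a1 in 22 of 32 cases and lower in 1, and acute phase genes in 13 of 23 and 1. Iigp1 read 10.01 on average with PGC-1a1 and TNF, 1.65 ± 0.22 below PGC-1a4. Tnfaip3 was 0.81 and Birc2 0.80 higher with PGC-1a4, whereas Nfkbia was 0.76 lower.

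Respiratory chain and TCA cycle genes had the reverse order. Of 67 respiratory chain genes, 65 were lower with PGC-1a4 than with PGC-1a1 and none was higher, with a median of -0.90, and 16 of 20 TCA cycle genes were lower. G6pc, at 7.77 with PGC-1a4, read 9.80 with PGC-1a1, a difference of -2.04. Its list of gluconeogenesis was split, with 4 of 13 genes higher than with PGC-1a1, 4 lower and a median of 0.06. Fbp1 was 0.66 higher with PGC-1a4. Hnf4a was 0.54 lower and Ndufs4 1.73 lower with PGC-1a4. Of the 19 hepatocyte transcription factors, 8 were higher and 7 lower than with PGC-1a1. Heat shock proteins had 8 of 23 higher and 4 lower than with PGC-1a1, and Hspa1b read 12.49 with PGC-1a1 against 12.30 (adjusted p = 0.272). Adm was 0.57 higher with PGC-1a4 than with PGC-1a1. Hspe1 differed in order, at 12.80 with PGC-1a1, near the 12.82 of vector. Pim3, Mrpl39 and Eogt read 11.96, 13.34 and 9.22 with PGC-1a1, above both PGC-1a4 and vector.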

How the data were processed

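Levels are log2 values that the authors deposited in a table; per the submitters' processing notes they used RMA and affy, with no version given. Of 33246 rows, 1 incomplete row was left out; 25951 probe sets name 1 gene in the platform annotation, 686 several and 6608 none, and 25803 were matched to current symbols by identifier. Where a gene had several probe sets (6488 of 15491 genes), the brightest on average stood for it. Calls are those of that probe set. For some genes named without comment the other probe sets did not all pass. Among them are Ddc, Fgf13, Bik, Ager, Fgf1 and Cdk2, each called under TNF on 1 of 2. limma 3.58.1 in R 4.3.3 fitted 1 mean per group over the 18 arrays (12 residual degrees of freedom), with Benjamini-Hochberg adjustment over all genes, so the other groups also informed the spread. In simulated data with 15491 genes, independent noise and no other effects, 67, 67 and 66 genes were changed by log2 0.5, 1 and 2. The fit recovered 44.8%, 95.5% and 100% of them, with 15 false calls among 175. Far more genes were called in the data, so these rates need not hold there. The members and the 40 gene lists (953 of 1185 entries measured) were chosen with earlier results of these data known.

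The text names Ppargc1a and Tnf, the 20 highest and 20 lowest called differences under TNF whose arrays do not overlap, the 10 highest and 10 lowest interactions, up to 15 genes called under both TNF and PBS, and in each list up to 8 called members by smallest p, or else the 4 with the smallest p. Predicted genes and clones were counted only. Alternatives were other scalings, sample sets, moderation, array weights, probe set rules, a filter on dim genes, stricter thresholds, the replicate block and leaving out each array. Same-numbered arrays deviated together by a correlation of 0.0136 to 0.0398, too little to pair them. Promoters are RefSeq's on GRCm38.p6 and cover 12327 genes measured. With 3 arrays per group, their number limits the precision.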

Additional observations from a re-analysis of the deposited data

Results flagged for a closer look

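The difference of PGC-1a4 from vector differed between TNF and PBS in 2480 genes by limma's interaction term. The genes with the highest interactions were Iigp1 (log2 2.81), Rsad2 (2.51), Glyctk (2.46), Saa4 (2.38), Maob (2.25), Ubd (2.25), Cxcl10 (2.23), Fgf13 (2.20), Tlr2 (2.14) and Cxcl5 (1.99). For Cxcl5, the difference under TNF alone did not pass (0.26 ± 0.42, with overlapping arrays), and under PBS it was -1.73.

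The lowest interactions were those of Psg28 (-2.59), Hspa1b (-2.43), Elmod3 (-1.88), Rabepk (-1.63), Pcdh17 (-1.61), Mrpl39 (-1.51), St8sia4 (-1.51), Eef1d (-1.46), Eogt (-1.45) and Lcorl (-1.45). Psg28 differed by 2.31 under PBS and by -0.28 under TNF.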

How the results depend on the processing

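Counts of calls moved by more than 1.5 times under stricter thresholds. At an adjusted p of 0.01 there were 3440 calls under TNF, 1215 for the interaction and 15 under PBS, and with a minimum fold of 1.5 there were 1713, 1463 and 16, and 2399 against PGC-1a1. Under PBS the count was 17 on the arrays compared alone, 157 with trend and robust moderation, 893 with array weights, 128 after quantile normalization, 96 after cyclic loess and 162 with dim genes filtered. Leaving out 1 array at a time gave 4348 to 4822 calls under TNF, 1964 to 2488 for the interaction, 9 to 59 under PBS and 5051 to 5228 against PGC-1a1. With the replicate block, although the numbers do not pair the arrays, the counts were 5110, 2436, 32 and 5595. Under TNF, higher genes made up 69.0% of the calls after median centring and 73.2% with dim genes filtered. For the interaction they made up 58.4% after quantile normalization. With the most variable probe set in place of the brightest, the differences of Bak1 (-0.24), Birc6 (-0.17), Csf1r (0.03), Mcl1 (-0.13), Sel1l (0.23) and Tradd (-0.21) had the other sign, as did that of Mcl1 with the mean of its probe sets (-0.08). The interaction of Cxcl5 lost its call without any of 7 arrays, with values of 1.37 to 2.0. With the most variable probe set, calls were also lost for Actb (0.04), Cct2 (-0.21), Jak2 (0.19), Pim1 (-0.15) and Vps52 (0.05), and with means of probe sets for Akt1 (0.14), Diablo (0.18), Sf3b5 (0.18) and Slc1a3 (-0.14); Lif lost its call after quantile normalization (0.35). List members that lost the call when single arrays were left out were Cebpd (0.45 to 0.46), Fdft1 (-0.27 to -0.22), Msmo1 (-0.26 to -0.25), Sirt1 (-0.36 to -0.33) and Vegfa (-0.29 to -0.27, without any 1 of the 6 arrays). The other causes were not tested.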
